A study of Mus musculus with 28 samples.

Results

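Integrins are adhesion receptors of the cell surface, each a pair of 1 α and 1 β subunit, and 9 integrin subunit genes were described across the groups in sorted microglia: *Itgam*, *Itgal*, *Itgax*, *Itgb2*, *Itgav*, *Itgb5*, *Itgb1*, *Itga6* and *Itga4*. They were taken by symbol from a table of 48587 genes. All 9 passed the low-count filter that left 15298 genes for testing. The table holds the RNA of hippocampal microglia, the resident macrophages of the brain, FACS-sorted from 28 male mice as viable CD11b+CD45low cells without markers of lymphocytes, granulocytes and Ly6C+ monocytes, 1 library per mouse. CD11b, on which the cells were sorted, is the protein of *Itgam*, so the sort required the product of a gene described here.

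WT mice were non-transgenic littermates, and 5xFAD mice were heterozygous for transgenes of mutant human APP and PS1 that the neuron-specific Thy-1 promoter drives, on a C57BL/6 J background, so that microglia themselves were not the target of the transgenes. All mice were 16 weeks old. Specific pathogen-free (SPF) mice carried a gut microbiota (5 SPF WT and 3 SPF 5xFAD mice). Germ-free (GF) mice lacked one from birth (4 GF WT and 5 GF 5xFAD mice). ABX mice were SPF mice that drank a mixture of vancomycin, cefoxitin, gentamicin and metronidazole for 8 weeks (5 ABX WT and 6 ABX 5xFAD mice). GF mice were bred in Bern and the other mice in Freiburg, so housing and source cannot be told apart. Title and genotype label give mouse FAD_GF_201 as 5xFAD, its description as WT, and it was kept as a GF 5xFAD mouse. The sample descriptions follow 3 numberings, 1 for the SPF and ABX WT mice, 1 for the SPF 5xFAD mice and mouse FAD_ABX_1151, and 1 for the remaining 5 ABX 5xFAD mice together with every GF mouse. What the numberings stand for is not stated. They cannot be told apart from genotype in SPF mice or in ABX mice, nor from housing between GF and SPF mice, between ABX and GF WT mice or, mouse FAD_ABX_1151 apart, between ABX and SPF 5xFAD mice, while the GF genotype comparison and ABX against SPF WT mice each lie within 1 numbering.

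Libraries held between 14441610 and 29977395 reads on genes. Levels are given as CPM, the reads of a gene relative to the library total scaled by edgeR's TMM method, and different genes are compared only per kilobase of exon (RPKM). The sum of 8 microglia markers lay between 58085 and 65594 CPM of the library totals in WT and between 44528 and 56902 CPM in 5xFAD mice. Neutrophil markers summed to between 57.2 and 221.7 CPM in the 3 SPF 5xFAD mice and to 117.8 CPM in mouse FAD_ABX_1151, and to at most 1.38 CPM in every other library. Markers of border-associated macrophages summed to between 34.0 and 253.3 CPM in ABX 5xFAD mice, to between 10.7 and 43.9 CPM in GF WT, 16.1 and 29.2 CPM in SPF 5xFAD and 10.0 and 81.0 CPM in GF 5xFAD mice, and to between 3.48 and 8.15 CPM in SPF and ABX WT mice. Monocyte markers summed to between 2.08 and 16.6 CPM in WT and 6.06 and 54.6 CPM in 5xFAD mice, and dendritic cell markers to between 8.14 and 15.2 CPM in WT and 4.84 and 58.0 CPM in 5xFAD mice. The 6 T cell markers summed to at most 0.60 CPM and the 4 NK cell markers to at most 2.57 CPM in any library. The part of these markers in the results below was not tested unless a value is given.

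The α subunits CD11b (*Itgam*), CD11a (*Itgal*) and CD11c (*Itgax*) all pair with the β2 subunit (*Itgb2*) and form the leukocyte integrins: complement receptor 3, which binds cleaved C3 on opsonised material, LFA-1, which binds ICAM proteins, and complement receptor 4. The αv subunit (*Itgav*) pairs with β5 (*Itgb5*) or other β subunits and binds ligands with an RGD sequence, such as MFG-E8 on dying cells and the latent form of TGF-β. The β1 subunit (*Itgb1*) pairs with α6 (*Itga6*) as a laminin receptor and with α4 (*Itga4*) as VLA-4, a receptor for VCAM-1 and fibronectin that blood leukocytes use to enter tissue. Since an integrin reaches the cell surface only as a pair, the level of its RNA does not give the amount of receptor, and in sorted bulk samples a changed level in all cells and a changed share of expressing cells cannot be told apart.

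*Itgal*, *Itgam* and *Itgax* lie in this order on the plus strand of chromosome 7 of GRCm38. *Itgam* spans 128062640 to 128118491 and *Itgax*, whose start is 11056 bases past the end of *Itgam*, 128129547 to 128150657, and *Itgal* starts 766380 bases before *Itgam*. The other 6 genes are also protein-coding genes of the plus strand: *Itgb2* on chromosome 10 (77530252 to 77565708), *Itgb5* on chromosome 16 (33829665 to 33949338), *Itgb1* on chromosome 8 (128685654 to 128733200), and on chromosome 2 *Itga6* (71745616 to 71858416), *Itga4* (79255426 to 79333123) and *Itgav* (83724397 to 83806916). The 250 bases before the RefSeq start of the neighbours *Itgam* and *Itgax* (RefSeq, GRCm38.p6, plus strand) are shown because the 2 genes moved in opposite directions in GF 5xFAD mice. Capitals mark GAGGAA, the core recognised by the myeloid factor PU.1, and TGANTCA, the AP-1 motif, each on either strand.
Itgam, chr7:128062390-128062639: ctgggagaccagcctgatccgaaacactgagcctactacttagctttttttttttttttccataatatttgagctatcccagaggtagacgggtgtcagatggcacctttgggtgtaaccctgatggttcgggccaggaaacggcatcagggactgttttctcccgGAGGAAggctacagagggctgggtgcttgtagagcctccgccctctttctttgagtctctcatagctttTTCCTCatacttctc
Itgax, chr7:128129300-128129549: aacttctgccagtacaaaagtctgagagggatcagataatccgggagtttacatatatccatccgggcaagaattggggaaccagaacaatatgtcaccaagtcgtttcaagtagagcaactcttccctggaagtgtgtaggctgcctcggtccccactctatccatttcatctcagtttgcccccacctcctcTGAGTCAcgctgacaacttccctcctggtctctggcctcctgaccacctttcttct
The *Itgam* window held GAGGAA 2 times and TGANTCA 0 times, and the *Itgax* window held GAGGAA 0 times and TGANTCA 1 time. Among all 32851 such windows in the RefSeq table, 23.3% held GAGGAA and 6.75% held TGANTCA. Windows were given for 6 of the 9 genes. GAGGAA also occurred 2 times for *Itgav* and 1 time for *Itgb1*, and 0 times for *Itgb5* and *Itga4*, and TGANTCA did not occur in these 4. CACGTG, the E-box (6.02% of all windows), occurred in none of the 6, and TGTGGT, a RUNX core (14% of all windows), occurred 1 time, for *Itga4*. A match is a run of letters and not a measured binding site.

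Per kilobase, *Itgb5* had the highest level of the 9 genes in every group, with group means from 708 RPKM in ABX WT to 1140 RPKM in GF 5xFAD mice, which was between 50.3% and 59.7% of the summed RPKM of the 9 genes. *Itgam* (group means of 211 to 314 RPKM) and *Itgb2* (205 to 355 RPKM) followed, then *Itgb1* (121 to 149 RPKM) and *Itga6* (40.5 to 58.6 RPKM). *Itgav* had group means of 12.4 to 27.5 RPKM. *Itgax* had means of 1.70 to 1.86 RPKM in WT and 14.8 to 27.3 RPKM in 5xFAD mice. *Itgal* stayed at or below a mean of 0.425 RPKM and *Itga4* at or below 0.216 RPKM.

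**Figure D1:**
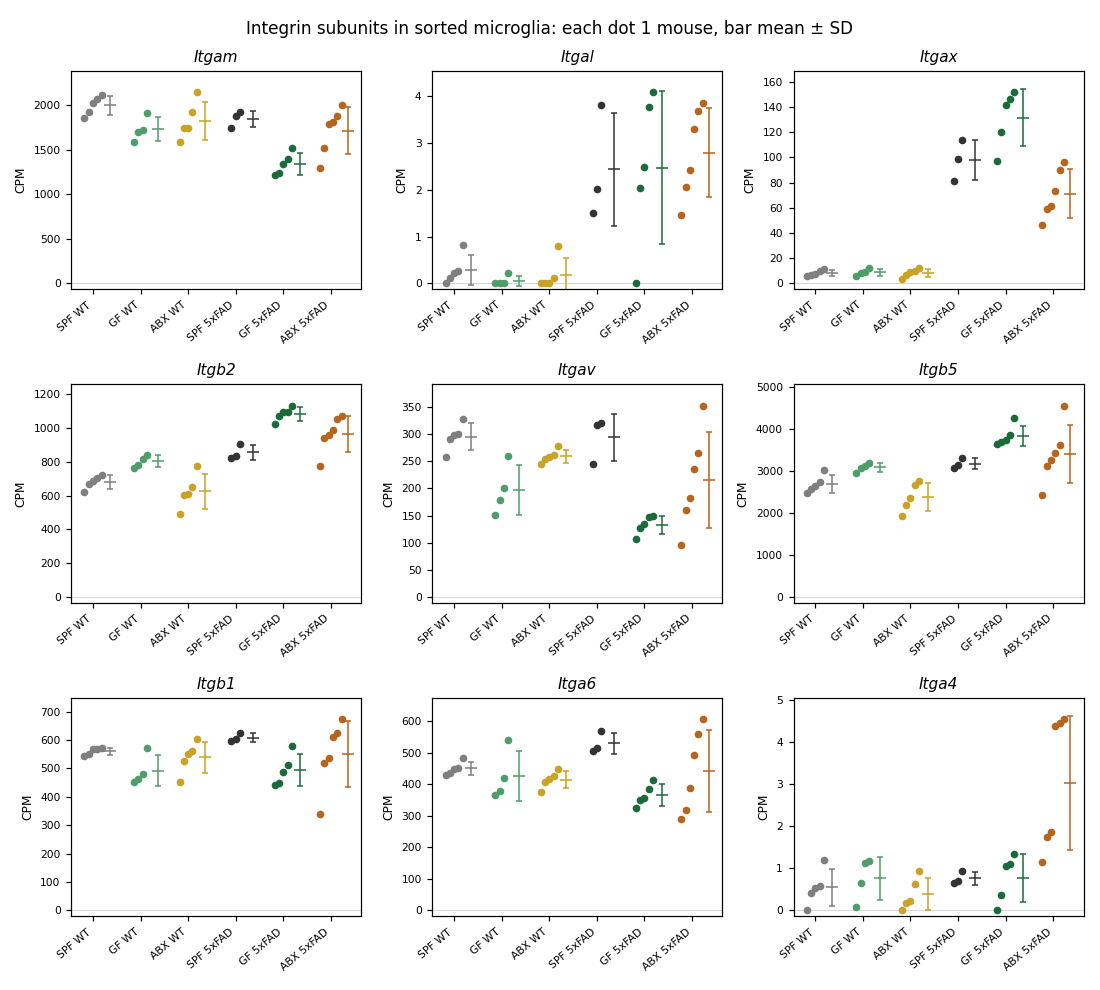
CPM (vertical axes, linear, TMM-scaled) of the 9 integrin subunit genes in the 6 groups. Each dot is 1 mouse and the bar beside the dots is the group mean ± SD. *Itgax* lay between 46.2 and 151.8 CPM in every 5xFAD mouse and at or below 12.6 CPM in every WT mouse, *Itgam* and *Itgav* had their lowest means in GF 5xFAD mice, and *Itga4* was above 4 CPM in 3 ABX 5xFAD mice alone.

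*Itgax*, the α subunit of complement receptor 4, was measured in WT mice at 5.67, 6.37, 7.80, 10.1 and 11.5 CPM under SPF conditions. GF WT mice had 5.73, 8.63, 8.73 and 12.6 CPM, and ABX WT mice 3.49, 6.48, 8.86, 9.77 and 12.2 CPM. The 3 WT groups overlapped throughout. In SPF 5xFAD mice it was at 81.4, 98.5 and 113.4 CPM. GF 5xFAD mice had 97.4, 119.8, 141.3, 146.3 and 151.8 CPM, with mouse FAD_GF_201, whose description calls it WT, the lowest of them and far above any WT mouse. The ABX 5xFAD mice ranged from 46.2 to 96.7 CPM with a median of 67.5 CPM. No 5xFAD mouse overlapped with a WT mouse, ABX and SPF 5xFAD mice overlapped, as did SPF and GF 5xFAD mice, and every GF 5xFAD mouse lay above every ABX 5xFAD mouse.

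The effect of the 5xFAD transgenes was tested in each condition with edgeR's quasi-likelihood test and Benjamini-Hochberg adjustment over all 15298 genes. In SPF mice 4.57% of all genes were called, at an adjusted p under 0.05, and 1 of the 9 subunits was, *Itgax*, whose log2 fold change was 3.57 (SE 0.284, adjusted p = 3.05e-10). In GF mice 15.6% of all genes and 4 of 9 subunits were called, *Itgax* (3.87), *Itgal* (5.35) and *Itgb2* (0.43) as higher and *Itgam* (-0.37) as lower in 5xFAD mice. In ABX mice 14.4% of all genes and 5 of 9 subunits were called, all higher: *Itgax* (3.13), *Itgal* (3.93), *Itga4* (2.92), *Itgb2* (0.62) and *Itgb5* (0.51). *Itgal* passed the low-count filter only through 5xFAD mice, and its calls set these against WT groups with 4 and 16 reads in all, so they are not read as support for the counts. The median log2 fold change over the 9 subunits was 0.24, 0.04 and 0.51 in SPF, GF and ABX mice, beside -0.03, -0.03 and -0.01 over all genes tested. The 3 comparisons share no mice, and the call of *Itgax* held in each of them under every alternative.

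*Itgax* rose by 3.87 (SE 0.298, adjusted p = 7.12e-11) in GF and by 3.13 (SE 0.261, adjusted p = 5.14e-10) in ABX 5xFAD mice (edgeR). Its order of group means, from the highest, was GF 5xFAD (131.3 ± 22.5 CPM, SD, n = 5), SPF 5xFAD (97.8 ± 16.0, n = 3), ABX 5xFAD (71.1 ± 19.4, n = 6), GF WT (8.92 ± 2.82, n = 4), SPF WT (8.29 ± 2.47, n = 5) and ABX WT mice (8.17 ± 3.33, n = 5). Neither neighbour in the 5xFAD part of this order differed past the threshold: the log2 fold change was 0.43 for GF against SPF (SE 0.277, adjusted p = 0.349) and -0.46 for ABX against SPF (SE 0.261, adjusted p = 0.739). ABX and GF 5xFAD mice did differ, by -0.89 (SE 0.226, adjusted p = 0.0124), and by -0.96 (adjusted p = 0.0165) without mouse FAD_ABX_1151. In the GF against SPF comparison, limma's voomWithQualityWeights, which down-weights variable libraries, gave 0.54 and an adjusted p of 0.0169. The genes with the most similar pattern over the 28 mice were *Ank*, a pyrophosphate transporter (Pearson r = 0.982 of log2 CPM), *Clec7a*, the β-glucan receptor Dectin-1 (0.977), and *Cst7*, the protease inhibitor cystatin F (0.976), where all 28 points share the split between genotypes.

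*Itgal* was close to the limit of detection. SPF WT mice had 0, 0.115, 0.223, 0.258 and 0.815 CPM, together 33 reads. In 3 of 4 GF WT mice it had 0 reads and in the other 0.215 CPM (4 reads), and in 3 of 5 ABX WT mice 0 reads, beside 0.119 and 0.802 CPM. The SPF 5xFAD mice had 1.51, 2.02 and 3.80 CPM, and the GF 5xFAD mice 0, 2.03, 2.49, 3.77 and 4.09 CPM. ABX 5xFAD mice ranged from 1.47 to 3.84 CPM with a median of 2.85 CPM. Thus 13 of 14 5xFAD mice lay above every WT mouse, and the exception, mouse FAD_GF_181 with 0 reads, had the second highest *Itgax* level of its group. A count of 0 allows up to 0.0989 to 0.198 CPM in the 8 libraries concerned (3 reads), which covers counting error only.

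The log2 fold change of *Itgal* between 5xFAD and WT mice was 3.07 under SPF conditions (SE 1.03, adjusted p = 0.0973), 5.35 under GF conditions (SE 1.29, adjusted p = 0.00404) and 3.93 with ABX (SE 1.02, adjusted p = 0.00834; edgeR). Only 2 of 14 WT mice had 10 or more reads, so the gene was tested because of the 5xFAD mice in which it is high, and these values are a description. Over the alternatives the log2 fold change ran from 4.86 to 8.64 in GF and from 3.55 to 6.44 in ABX mice. The SPF value passed with voomWithQualityWeights (adjusted p = 0.00635), in a fit of the groups compared (0.0139) and without mouse WT_SPF_912 (0.0475). No comparison of housing within a genotype passed for *Itgal*. Other leukocytes also carry LFA-1. Mice FAD_SPF_1144, FAD_SPF_1146 and FAD_SPF_1148 had 3.80, 2.02 and 1.51 CPM of *Itgal*. Their neutrophil marker sums were 221.7, 149.3 and 57.2 CPM, beside at most 0.18 CPM in SPF WT mice. In the 5 GF 5xFAD mice the T cell markers were at 0 and the neutrophil markers summed to at most 1.38 CPM, while the NK cell sum, all of it *Klrb1c*, reached 2.57 CPM (0 in every GF WT mouse), the monocyte sum 25.1 CPM (16.6 in GF WT mice) and the dendritic cell sum 23.3 CPM (15.2 in GF WT mice). In ABX mice, where *Itgal* was called too, 5xFAD mice had up to 54.6 CPM of monocyte, 58.0 CPM of dendritic cell and 253.3 CPM of border-associated macrophage markers, beside at most 9.05, 10.8 and 5.90 CPM in WT mice. Single genes made up much of the highest sums: *Ccr2*, a monocyte marker, reached 24.3 CPM in GF and 50.8 CPM in ABX 5xFAD mice. *Cd209a*, a dendritic cell marker, reached 15.9 and 41.6 CPM. The part of these cells in the level of *Itgal* was not tested. Most similar in pattern were *Lag3*, a receptor for MHC class II (r = 0.836), *Clec7a* (0.812) and *Cst7* (0.801).

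*Itgam* had the highest level of the 3 α subunits in every mouse. SPF WT mice had 1862, 1929, 2026, 2073 and 2114 CPM, GF WT mice 1592, 1706, 1723 and 1915 CPM and ABX WT mice 1595, 1742, 1742, 1922 and 2151 CPM. The SPF 5xFAD mice, at 1746, 1878 and 1924 CPM, were within or below the SPF WT range. GF 5xFAD mice had 1218, 1243, 1344, 1401 and 1520 CPM. ABX 5xFAD mice ranged from 1299 to 2007 CPM with a median of 1802 CPM, the lowest being mouse FAD_ABX_1482 and the highest mouse FAD_ABX_1151. All 5 GF 5xFAD mice lay below every GF WT and every SPF 5xFAD mouse.

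The log2 fold change of *Itgam* in GF 5xFAD mice was -0.37 against GF WT (SE 0.0975, adjusted p = 0.00882) and -0.46 against SPF 5xFAD mice (SE 0.105, adjusted p = 0.00542; edgeR). Neither call was lost under any alternative. The 5xFAD effect was -0.11 in SPF (SE 0.107, adjusted p = 0.766) and -0.09 in ABX mice (SE 0.0882, adjusted p = 0.558). ABX exceeded GF 5xFAD mice by 0.35 (SE 0.0887, adjusted p = 0.0112), a difference that did not pass in a fit of these 2 groups alone (0.39, adjusted p = 0.0750). Since the cells were sorted on CD11b protein, these values describe the RNA of cells that passed that gate. *Frmd4b*, a FERM domain protein, *Epb41l2*, a membrane skeleton protein, and *Gcnt1*, a glycosyltransferase, had the most similar pattern (r = 0.917, 0.916 and 0.906).

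*Itgb2*, the partner of all 3 α subunits, was at 619.0, 669.3, 684.1, 702.3 and 724.7 CPM in SPF WT mice and higher in every GF WT mouse, with 764.1, 783.8, 819.4 and 842.1 CPM. ABX WT mice had 491.2, 605.6, 607.7, 648.9 and 776.4 CPM. All 5xFAD mice but 1 were above every WT mouse of the same housing, with 820.7, 836.3 and 908.1 CPM in SPF and 1023, 1073, 1092, 1095 and 1133 CPM in GF 5xFAD mice. ABX 5xFAD mice ranged from 773.3 CPM in mouse FAD_ABX_1151 to 1073 CPM, with a median of 973.2 CPM. GF 5xFAD mice lay above every GF WT and every SPF 5xFAD mouse.

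*Itgb2* rose in 5xFAD mice by 0.43 under GF (SE 0.0936, adjusted p = 0.00141) and by 0.62 under ABX conditions (SE 0.0848, adjusted p = 3.91e-06; edgeR). Under SPF conditions the difference was 0.33 (SE 0.100, adjusted p = 0.0542), and 8 of 10 other settings put it past the threshold, among them DESeq2 (adjusted p = 0.0182) and voomWithQualityWeights (0.00347). GF exceeded SPF 5xFAD mice by 0.34 (SE 0.102, adjusted p = 0.0265). That call was lost with GC content offsets (0.20, adjusted p = 0.141) or gene length offsets (0.27, 0.0613), with library size alone (0.24, 0.0756) or no low-count filter (0.31, 0.0874), and when mouse FAD_SPF_1146 (adjusted p = 0.140), FAD_SPF_1148 (0.129) or FAD_GF_182 (0.0562) was left out. The SPF 5xFAD mice were also the group with neutrophil markers, 57.2 to 221.7 CPM in sum beside at most 1.38 CPM in GF 5xFAD mice, and neutrophils express *Itgb2* and *Itgam* too. Their part was not tested. *Naglu*, a lysosomal enzyme, *Coro1c*, an actin-binding coronin, and *Slc38a10*, an amino acid transporter, were most similar in pattern (r = 0.960, 0.959 and 0.956).

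The balance within the β2 integrins was described as the share of *Itgax* in the summed RPKM of the α subunits that pair with β2 (*Itgam*, *Itgal*, *Itgax* and *Itgad*) and as the ratio of that sum to *Itgb2*. *Itgax* made up 0.54% ± 0.15 (SD, n = 5) of the α subunits in SPF WT, 0.69% ± 0.25 (n = 4) in GF WT and 0.61% ± 0.27 (n = 5) in ABX WT mice. The share was 6.58% ± 1.31 (n = 3) in SPF 5xFAD, 11.5% ± 2.19 (n = 5) in GF 5xFAD and 5.21% ± 1.17 (n = 6) in ABX 5xFAD mice. GF 5xFAD mice had 7.82, 11.3, 12.5, 12.6 and 13.3%, and the lowest, mouse FAD_GF_201, overlapped with the SPF 5xFAD range of 5.32 to 7.93%. *Itgam* made up the remainder almost entirely, with group means from 88.3% in GF 5xFAD to 99.4% in SPF WT mice.

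The ratio of the α subunits to *Itgb2* was 1.42 ± 0.0550 (SD, n = 5) in SPF WT and 1.42 ± 0.0896 (n = 5) in ABX WT mice, and 1.04 ± 0.109 (n = 4) in GF WT mice. It was 1.11 ± 0.0965 (n = 3) in SPF 5xFAD, 0.917 ± 0.221 (n = 6) in ABX 5xFAD and 0.674 ± 0.0644 (n = 5) in GF 5xFAD mice. GF WT mice lay between 0.982 and 1.21 and SPF WT mice between 1.34 and 1.49 without overlap, and GF 5xFAD mice, between 0.615 and 0.773, did not overlap with SPF 5xFAD mice, between 1.00 and 1.17. ABX 5xFAD mice covered 0.672 in mouse FAD_ABX_1482 to 1.32 in mouse FAD_ABX_1151. No test was run on these ratios, which were formed after the values of the genes were seen. The ratios carry no gene length or GC content offsets. *Itgam* has 6377 bases of exon and 49.9% GC, and *Itgb2* 3052 bases and 53.4% GC. Between GF and SPF WT mice neither gene passed with edgeR (adjusted p = 0.28 and 0.17). The *Itgb2* call between GF and SPF 5xFAD mice was lost with GC content offsets (adjusted p = 0.141). The part of length and GC content in the ratios was not tested.

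**Figure D2:**
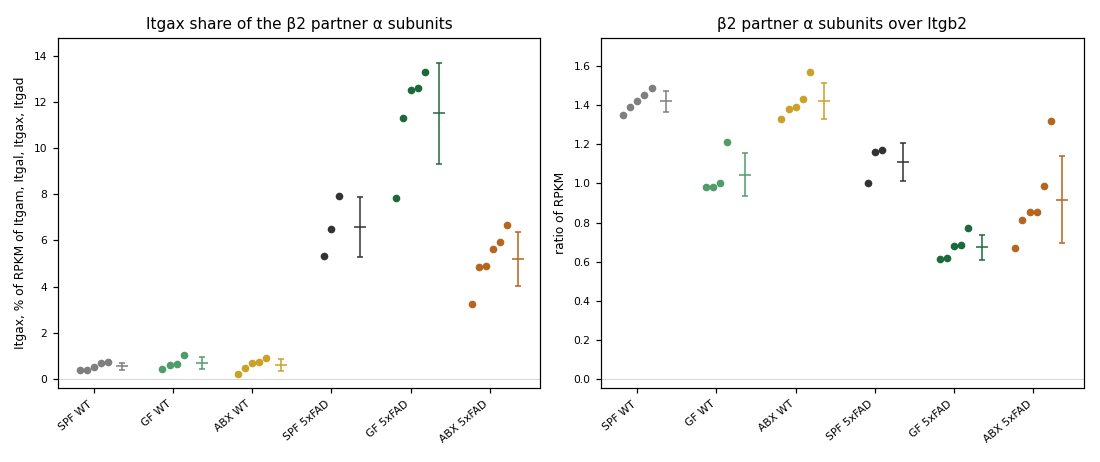
Left, *Itgax* as a percentage of the summed RPKM of *Itgam*, *Itgal*, *Itgax* and *Itgad*; right, the ratio of that sum to *Itgb2* (RPKM over RPKM). Dots are mice and bars mean ± SD; the share of *Itgax* was at most 1.04% in WT and at least 3.26% in 5xFAD mice, and the ratio was lowest in GF 5xFAD mice (0.615 to 0.773).

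*Itgav* was lowest in GF 5xFAD mice. SPF WT mice had 258.0, 291.1, 299.4, 300.3 and 327.2 CPM, GF WT mice 150.4, 177.8, 200.4 and 259.1 CPM and ABX WT mice 244.7, 254.4, 257.1, 262.4 and 278.0 CPM. The SPF 5xFAD values of 244.5, 317.8 and 320.8 CPM were close to those of SPF WT mice. GF 5xFAD mice had 107.6, 126.5, 135.2, 146.5 and 149.8 CPM, all below any SPF or GF WT mouse. ABX 5xFAD mice spread from 96.5 CPM in mouse FAD_ABX_1482 to 352.8 CPM in mouse FAD_ABX_1151, with a median of 208.8 CPM, and thus covered the ranges of both other 5xFAD groups. The spread among ABX 5xFAD mice (SD 89.3 CPM) was the widest of the 6 groups.

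For *Itgav*, the log2 fold change was -1.15 for GF against SPF 5xFAD mice (SE 0.223, adjusted p = 0.00227; edgeR), and this call held under every alternative. In WT mice the same comparison gave -0.58 (SE 0.211, adjusted p = 0.140), which passed with voomWithQualityWeights (adjusted p = 0.00216), in a fit of the 2 groups (0.0101) and over the 26 mice without FAD_ABX_1151 and FAD_ABX_1482 (0.0161). Between genotypes *Itgav* differed by -0.57 in GF mice (SE 0.208, adjusted p = 0.0640), which passed in 6 of 10 other settings, by -0.27 in ABX mice (SE 0.188, adjusted p = 0.386) and by -0.00 in SPF mice (SE 0.227, adjusted p = 0.998). ABX exceeded GF 5xFAD mice by 0.70 (SE 0.191, adjusted p = 0.0187), but by 0.73 (adjusted p = 0.114) in a fit of these 2 groups alone, by 0.51 (0.0676) without mouse FAD_ABX_1151, which carries the numbering of the SPF 5xFAD mice, and by 0.63 (0.0536) without mouse FAD_GF_184. *Tgfbr1*, a receptor for TGF-β, *Sf3b1*, a splicing factor, and *Skil*, a repressor of TGF-β signalling, were most similar in pattern (r = 0.964, 0.956 and 0.955).

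*Itgb5*, the partner of αv and a gene of the homeostatic microglial profile, went the other way. SPF WT mice had 2467, 2572, 2637, 2727 and 3032 CPM, GF WT mice 2953, 3067, 3125 and 3182 CPM and ABX WT mice 1933, 2190, 2360, 2671 and 2749 CPM. The SPF 5xFAD mice had 3073, 3131 and 3309 CPM and GF 5xFAD mice 3646, 3698, 3725, 3851 and 4249 CPM. ABX 5xFAD mice ranged from 2418 to 4554 CPM with a median of 3347 CPM. In SPF and in GF mice every 5xFAD mouse lay above every WT mouse, and every GF 5xFAD mouse lay above every SPF 5xFAD mouse.

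*Itgb5* passed the threshold between genotypes in ABX mice (0.51, SE 0.102, adjusted p = 0.000653; edgeR). The difference was 0.32 in GF (SE 0.112, adjusted p = 0.0548), which passed in 7 of 10 other settings and fell to 0.19 (adjusted p = 0.206) with library size alone, and 0.24 in SPF mice (SE 0.121, adjusted p = 0.379). The SPF value passed in a fit of only the groups compared (0.25, adjusted p = 0.039). GF exceeded SPF 5xFAD mice by 0.27 (SE 0.123, adjusted p = 0.145), which passed with voomWithQualityWeights (0.0402) and in a fit of these 2 groups (0.0404), and shrank to 0.07 (adjusted p = 0.730) with GC content offsets. In WT mice, where ABX and GF also differ in numbering, ABX was lower than GF by 0.37 (SE 0.111, adjusted p = 0.0405), a call lost with GC content offsets (-0.15, adjusted p = 0.498), with gene length offsets (-0.33, adjusted p = 0.0525) and without any 1 of 6 of the 9 mice compared (adjusted p up to 0.119). *Itgb2* was also lower in ABX than GF WT mice (-0.36, SE 0.0926, adjusted p = 0.0191), a call that GC content offsets removed (adjusted p = 0.159), as did leaving out mouse WT_GF_229 (0.0581), WT_GF_231 (0.0602) or WT_ABX_911 (0.0585). *Gna12*, a G protein α subunit, *Gm38317* and *Man1c1*, a mannosidase, were nearest to *Itgb5* in pattern (r = 0.955, 0.933 and 0.928).

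*Itgb1* and *Itga6*, the laminin receptor pair, did not pass between genotypes with edgeR over the 28 mice. Their log2 fold changes in SPF, GF and ABX mice were 0.12 (SE 0.135), 0.01 (SE 0.124) and 0.03 (SE 0.112) for *Itgb1*, with adjusted p of 0.817 or more, and 0.23 (SE 0.161), -0.22 (SE 0.149) and 0.09 (SE 0.135) for *Itga6*, with adjusted p of 0.609, 0.362 and 0.712. The SPF value of *Itga6* passed in a fit of the groups compared (0.24, adjusted p = 0.0488). *Itgb1* was at 543.1, 549.5, 567.2, 568.2 and 573.1 CPM in SPF WT, 452.6, 463.4, 480.8 and 572.2 CPM in GF WT and 451.9, 525.6, 551.6, 563.2 and 602.3 CPM in ABX WT mice. It was at 595.3, 605.3 and 624.8 CPM in SPF 5xFAD and 441.8, 448.5, 487.8, 513.9 and 580.6 CPM in GF 5xFAD mice, without overlap. ABX 5xFAD mice ranged from 339.8 to 674.0 CPM with a median of 573.8 CPM. No comparison passed for *Itgb1* in the edgeR fit of the 28 mice with TMM scaling. GF against SPF 5xFAD mice gave -0.30 (SE 0.134, adjusted p = 0.145), and passed with voomWithQualityWeights (0.0224), with library size alone (0.0478) and over the 26 mice (0.0350). Without mouse FAD_ABX_1482, ABX exceeded GF 5xFAD mice by 0.26 (adjusted p = 0.0335). *Usp8*, a deubiquitinase, *Tnks2*, a tankyrase, and *Mob1a*, a Hippo pathway protein, were most similar in pattern (r = 0.900, 0.878 and 0.876).

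*Itga6* was at 430.6, 435.4, 448.9, 451.7 and 482.6 CPM in SPF WT, 364.9, 378.4, 419.3 and 538.8 CPM in GF WT and 376.0, 406.8, 415.1, 424.9 and 448.1 CPM in ABX WT mice. SPF 5xFAD mice had 506.3, 514.0 and 567.8 CPM, above every SPF WT mouse, and GF 5xFAD mice had 323.8, 349.8, 356.9, 383.8 and 413.5 CPM, below every SPF mouse of either genotype. ABX 5xFAD mice ranged from 290.7 to 606.3 CPM with a median of 440.1 CPM. The log2 fold change was -0.53 for GF against SPF 5xFAD mice (SE 0.160, adjusted p = 0.0267; edgeR). It did not pass with gene length offsets (-0.29, adjusted p = 0.139) or GC content offsets (-0.47, adjusted p = 0.0548), nor without mouse FAD_SPF_1146 (adjusted p = 0.108), FAD_SPF_1148 (0.0761) or FAD_GF_184 (0.0553). Between ABX and GF 5xFAD mice *Itga6* differed by 0.27 (adjusted p = 0.199), and by 0.37 (adjusted p = 0.0373) without mouse FAD_ABX_1482. *Atp2a2*, a calcium pump, *Cltc*, the clathrin heavy chain, and *Dock11*, an activator of Cdc42, were nearest in pattern (r = 0.877, 0.869 and 0.864).

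*Itga4*, the α subunit of VLA-4, had few reads and rose in ABX 5xFAD mice. SPF WT mice had 0, 0.421, 0.530, 0.576 and 1.21 CPM, GF WT mice 0.0895, 0.644, 1.12 and 1.18 CPM and ABX WT mice 0, 0.178, 0.229, 0.626 and 0.926 CPM. SPF 5xFAD mice had 0.652, 0.699 and 0.935 CPM and GF 5xFAD mice 0, 0.374, 1.04, 1.10 and 1.35 CPM. ABX 5xFAD mice had between 1.15 and 4.54 CPM with a median of 3.11 CPM, and all 6 lay above every ABX WT mouse. Mice FAD_ABX_1452, FAD_ABX_1455 and FAD_ABX_1482, at 4.45, 4.54 and 4.36 CPM, stood apart from the other 3, which were at or below 1.86 CPM.

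The log2 fold change of *Itga4* between ABX 5xFAD and ABX WT mice was 2.92 (SE 0.841, adjusted p = 0.0175; edgeR), and 2.75 with an adjusted p of 0.0544 without mouse WT_ABX_911. It was 0.46 in SPF (SE 0.932, adjusted p = 0.926) and 0.04 in GF mice (SE 0.862, adjusted p = 0.987). Against SPF 5xFAD mice the ABX 5xFAD mice differed by 1.98 (SE 0.970, adjusted p = 0.705) and against GF 5xFAD mice by 1.96 (SE 0.792, adjusted p = 0.110). Mice FAD_ABX_1452 and FAD_ABX_1455 also had the highest sums of border-associated macrophage markers (253.3 and 237.7 CPM), of 5 monocyte markers (46.7 and 54.6 CPM, at most 9.05 in ABX WT mice) and of 6 dendritic cell markers (58.0 and 39.2 CPM, at most 10.8 in ABX WT mice). GF 5xFAD mice, in which *Itga4* was not called, had all 7 border-associated macrophage markers too, with sums up to 81.0 CPM. Mouse FAD_ABX_1453, with 195.6 CPM of these 7 markers, had 1.73 CPM of *Itga4*, and mouse FAD_ABX_1482, with 117.1 CPM, had 4.36 CPM. Among the monocyte markers *Ccr2* reached 50.8 CPM in ABX 5xFAD mice, and *Chil3*, *Ace*, *Plac8* and *Ly6c2* 8.45, 2.69, 1.74 and 0.345 CPM. Among the dendritic cell markers *Cd209a* reached 41.6 CPM and *Zbtb46* 12.9 CPM in these mice. *Flt3*, *Clec9a*, *Xcr1* and *Cd24a* reached 8.1, 1.24, 0.76 and 0.285 CPM. The part of these 3 cell types in the rise of *Itga4* was not tested. *Slc20a2*, a phosphate transporter, *Mrc1*, the mannose receptor and itself 1 of the 7 markers, and *Tsr1*, a ribosome assembly factor, were nearest to *Itga4* in pattern (r = 0.771, 0.645 and 0.644).

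**Figure D3:**
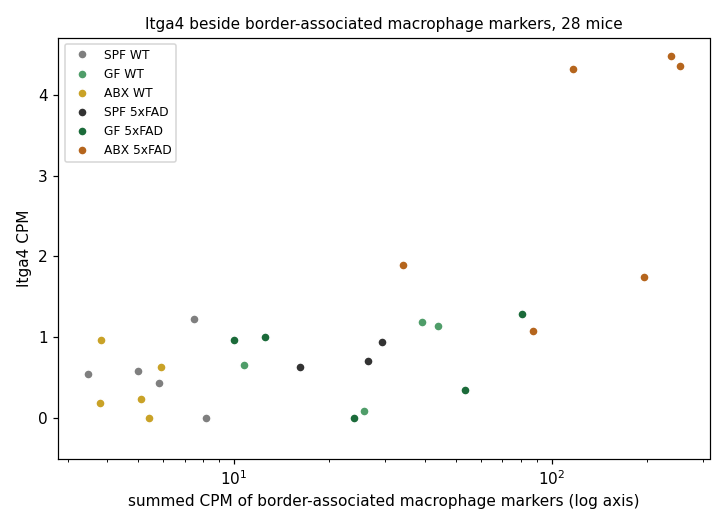
*Itga4* (CPM of the library total, vertical axis) beside the summed CPM of 7 border-associated macrophage markers (horizontal axis, logarithmic) in 28 mice, coloured by group. The 6 ABX 5xFAD mice spanned 34.0 to 253.3 CPM of the markers, and the 3 mice above 4 CPM of *Itga4* had between 117.1 and 253.3 CPM of them.

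Housing was compared within each genotype. These comparisons share mice with each other and with those of genotype, so their values are not independent. Between GF and SPF 5xFAD mice 12.8% of all genes and 4 of 9 subunits were called, *Itgb2* as higher and *Itgam*, *Itgav* and *Itga6* as lower in GF mice. The median log2 fold change of the 9 subunits was 0.02, the same as that of all genes (0.02). Between ABX and GF 5xFAD mice 10.6% of all genes and 3 of 9 subunits were called, *Itgam* and *Itgav* as higher and *Itgax* as lower in ABX mice, beside medians of 0.17 for the subunits and 0.01 for all genes. Between ABX and SPF 5xFAD mice 0% of all genes and 0 of 9 subunits passed with edgeR, 1 subunit (*Itgav*) had an unadjusted p under 0.05, as did 7.09% of all genes, and DESeq2 and voomWithQualityWeights called 0 subunits (0.0523% and 0.876% of all genes). The edgeR medians were -0.11 for the subunits and 0.01 for all genes.

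In WT mice, GF against SPF housing gave 1.62% of all genes and 0 of 9 subunits with edgeR. *Itgam*, *Itgb2* and *Itgav* had an unadjusted p under 0.05, as did 16.6% of all genes, DESeq2 called 0 subunits (4.71% of all genes) and voomWithQualityWeights 3 (10.7% of all genes), and the medians were -0.08 for the subunits and -0.01 for all genes. Between ABX and SPF WT mice 0% of all genes and 0 of 9 subunits passed, with 0 subunits at an unadjusted p under 0.05 (4.49% of all genes) and 0 called by DESeq2 or voomWithQualityWeights (0.0131% and 0% of all genes). Between ABX and GF WT mice 6.88% of all genes and 2 of 9 subunits were called, *Itgb2* and *Itgb5*, both lower in ABX mice (median -0.04, beside 0.01 for all genes).

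Interaction terms tested whether the effect of genotype on the subunits depended on housing. With edgeR 0 of the 9 subunits passed for GF against SPF (0% of all genes), for ABX against SPF (0% of all genes) or for ABX against GF (1.76% of all genes). DESeq2 and voomWithQualityWeights also called 0 of the 9, beside 0.163% and 0.758%, 0.00654% and 0.0915%, and 3.77% and 1.84% of all genes. An unadjusted p under 0.05 was reached by 1, 1 and 3 of the 9 and by 8.52%, 6.75% and 15.9% of all genes, so that 1 of 9 is near the background. For GF against SPF the interaction was -0.45 for *Itga6* (SE 0.219, adjusted p = 0.585), -0.56 for *Itgav* (SE 0.306, adjusted p = 0.637), 0.31 for *Itgax* (SE 0.389, adjusted p = 0.876) and 0.10 for *Itgb2* (SE 0.138, adjusted p = 0.887). For ABX against GF it was -0.74 for *Itgax* (SE 0.359, adjusted p = 0.310), 0.28 for *Itgam* (SE 0.132, adjusted p = 0.3001) and 2.89 for *Itga4* (SE 1.18, adjusted p = 0.211). Calls made in 1 condition and not in another were therefore not shown to differ between conditions.

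**Figure D4:**
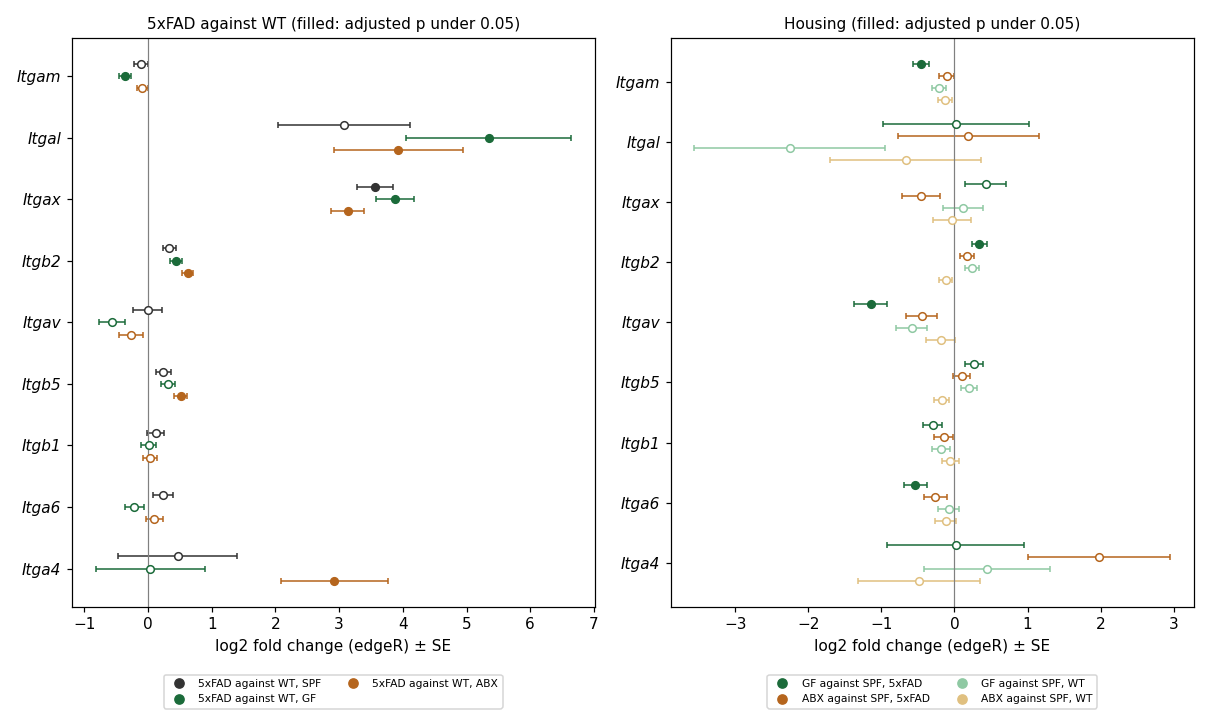
Log2 fold change ± SE (horizontal axes, edgeR) of the 9 integrin subunit genes. Left, 5xFAD against WT mice in each condition; right, GF or ABX against SPF mice in each genotype; filled dots passed an adjusted p of 0.05. *Itgax* and *Itgal* lay furthest right on the left side (between 3.07 and 5.35), and the lowest filled dot was *Itgav* in GF against SPF 5xFAD mice (-1.15) on the right side.

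Over the 28 mice the members fell into patterns that moved together. *Itgam* and *Itgav* had a Pearson r of 0.884 of log2 CPM, *Itgav* and *Itga6* 0.774, and *Itgb1* and *Itga6* 0.758. *Itgb2* and *Itgb5* had an r of 0.852, *Itgal* and *Itgax* 0.781 and *Itgax* and *Itgb2* 0.778. *Itgb2* ran against *Itgav* (-0.645) and *Itgam* (-0.552), although β2 is the partner of *Itgam*, and *Itgb5* ran against its partner *Itgav* (-0.498). These values describe 28 mice that share groups and library scaling. The genes also differ in exon length and GC content. *Itgam*, *Itgav*, *Itga6* and *Itgb1* have 6377, 10744, 9025 and 4081 bases with 49.9%, 46.9%, 47.2% and 44.7% GC. *Itgb2*, *Itgb5*, *Itgax* and *Itgal* have 3052, 3362, 4803 and 6569 bases with 53.4%, 56%, 50.8% and 53.6% GC. The part of length and GC content in these patterns was not tested.

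Of the other 19 integrin subunits listed, 11 had enough reads to be tested. In 5xFAD against WT mice 1 rose and 0 fell under SPF, 1 rose and 2 fell under GF and 3 rose and 0 fell under ABX conditions (medians of 0.37, 0.51 and 0.72, beside -0.03, -0.03 and -0.01 over all genes, of which 4.57%, 15.6% and 14.4% were called). The SPF rise was *Itgb2l*, described below. Apart from *Itga5*, the ABX rises were of subunits with a mean below 1 CPM in every group. These counts thus rest partly on few reads and are not read as support. *Itga5*, the fibronectin receptor partner of β1, rose in GF 5xFAD (0.51, SE 0.161, adjusted p = 0.0284) and ABX 5xFAD mice (0.72, SE 0.147, adjusted p = 0.000949; edgeR), and was also higher in GF than SPF 5xFAD mice (0.56, SE 0.177, adjusted p = 0.0345). Between the SPF genotypes *Itga5* was not called. Its means were 54.8 CPM in GF WT, 35.7 CPM in ABX WT, 53.0 CPM in SPF 5xFAD, 78.2 CPM in GF 5xFAD and 58.9 CPM in ABX 5xFAD mice. *Itga9*, another β1 partner, fell in GF 5xFAD against GF WT mice from 198.0 ± 20.5 (SD, n = 4) to 107.4 ± 20.6 CPM (SD, n = 5), by 0.88 (SE 0.124, adjusted p = 5.93e-06), and its 5xFAD effect differed between ABX and GF mice (interaction 0.81, SE 0.168, adjusted p = 0.0152). *Itgae*, the α subunit of the E-cadherin receptor, fell from 11.8 ± 1.52 to 5.81 ± 1.49 CPM in the same comparison, by 1.02 (SE 0.225, adjusted p = 0.00164). *Itgb3*, the other main partner of αv, passed in none of the 3 and had means of 68.1 to 112.0 CPM. *Itgb7* reached means of 2.27 CPM in GF 5xFAD and 2.38 CPM in ABX 5xFAD mice, with adjusted p of 0.0554 and 0.107 against WT mice. *Itga8* (1.34 CPM in ABX 5xFAD mice) had too few reads to be tested.

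*Itgb2l*, a β2-like subunit that is itself on the neutrophil list, was found in SPF 5xFAD mice (1.18 ± 0.650 CPM, SD, n = 3) and at a mean of 0.122 CPM in ABX 5xFAD mice, and was at 0 in the other 4 groups. It passed the low-count filter through the 3 SPF 5xFAD mice, and both of its calls, in SPF 5xFAD against WT (adjusted p = 0.0392) and in GF against SPF 5xFAD mice (adjusted p = 0.0221), set that group against a group at 0. The libraries that held it are those with neutrophil markers.

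Among 52 tested genes of integrin activation and signalling, 3 rose and 0 fell in SPF, 5 rose and 9 fell in GF and 8 rose and 7 fell in ABX 5xFAD against WT mice, beside the 4.57%, 15.6% and 14.4% of all genes called. Their medians were -0.03, -0.01 and 0.09, beside -0.03, -0.03 and -0.01 over all genes, and 3 of 52 is near the background. *Tln2*, a talin that links β tails to actin, rose in all 3 (0.51, 0.60 and 0.99), as did the Src family kinases *Fyn* (0.70, 0.63 and 0.49) and *Fgr* (2.10, 2.20 and 1.57), *Fgr* from 4.75 ± 1.69 CPM (SD, n = 5) in SPF WT to 20.4 ± 5.38 CPM (SD, n = 3) in SPF 5xFAD mice (adjusted p = 5.88e-05). *Lyn*, another kinase of this family, fell by 0.25 in GF and by 0.18 in ABX mice. *Elmo1*, an adaptor of engulfment, fell by 0.53 and by 0.31, and *Actn1*, an actinin, by 1.26 and by 1.30. In SPF mice these 3 were not called (-0.19, -0.22 and -0.64, adjusted p = 0.153, 0.443 and 0.347). Between GF and SPF 5xFAD mice 2 genes of this list rose and 2 fell (12.8% of all genes were called). *Elmo1* was lower in GF mice (-0.54, SE 0.118, adjusted p = 0.00442), as was *Tns3*, a tensin (-0.50, SE 0.166, adjusted p = 0.0460). *Fermt3*, the kindlin-3 that activates β2 integrins (0.43, SE 0.130, adjusted p = 0.0274), and *Rsu1*, which binds the ILK complex (0.33, SE 0.0984, adjusted p = 0.0259), were higher, and *Tns3*, *Fermt3* and *Rsu1* are named after their values were seen.

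Of 39 integrin ligands listed, 19 were tested, and 5 rose and 1 fell in SPF, 5 rose and 0 fell in GF and 8 rose and 2 fell in ABX 5xFAD against WT mice (medians of 0.15, 0.55 and 0.49), set against the same shares of all genes called. *Spp1*, or osteopontin, a ligand of αv and β1 integrins, rose by 4.35, 3.50 and 4.54 in SPF, GF and ABX mice, *Igf1*, a growth factor that also binds αv integrins, by 6.86, 5.99 and 6.43, and *Mfge8*, the αvβ5 ligand, by 0.76, 1.16 and 0.95. *Adam9*, a surface protease with a disintegrin domain, rose by 0.75, 0.55 and 0.49. *Fn1*, fibronectin, rose by 4.10, 3.71 and 8.41 from means of at most 0.239 CPM in WT mice, so that these sizes rest on few reads. The calls of *Fn1* set 5xFAD mice against groups near 0 and are a description. In ABX mice, with the largest value, border-associated macrophage markers reached 253.3 CPM in 5xFAD and 5.90 CPM in WT mice. The part of these cells in *Fn1* was not tested. *F11r*, the junctional protein JAM-A, which LFA-1 binds, fell by 0.31 in both SPF and ABX mice (adjusted p = 0.0365 and 0.00311). Of the 19 ligands, 1 was called for GF against SPF 5xFAD mice, beside 12.8% of all genes. This was *Mfge8*, with 87.5 ± 9.90 CPM (SD, n = 5) and 47.3 ± 7.68 CPM (SD, n = 3), a difference of 0.89 (SE 0.160, adjusted p = 0.00164).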

How the data were processed

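RNA of sorted hippocampal microglia from 28 mice was analysed. The deposited table holds unnormalized read counts for each gene. Per the labels and methods, the authors made libraries with an Ultra Low Input kit and Nextera XT, aligned the reads with STAR and counted them with featureCounts on GRCm38, while the processing notes of the labels name another build, GRCh38.p12. The strand setting is not given in the sources used here, so overlapping antisense genes cannot be told apart. All sample columns were used. Spike-in entries (92) were set aside. 

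Counts were tested in R 4.3.3 with edgeR 4.0.16: filterByExpr (minimum count 10, minimum total 15), TMM scaling, and the quasi-likelihood test in 1 model with a term per group, with Benjamini-Hochberg adjustment over 15298 genes and a threshold of 0.05. CPM and RPKM were computed here from the counts, RPKM with the exon lengths of the table, and marker sums against library totals. Similarity of pattern is Pearson r of log2 CPM (prior count 2) over genes with a mean of at least 3 log2 CPM. Counting error matters for *Itgal* and *Itga4*. For the other 7 genes the variation among mice is larger.

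The 9 genes, the 3 gene lists and the cell type markers were chosen with earlier results of these data known. Named are the 9 genes, the 3 genes most similar to each, listed subunits with a mean of at least 1 CPM in some group, and listed signalling genes and ligands past the threshold in 2 or more of the 3 genotype comparisons. Alternatives were RLE scaling, library size alone, no filter on low counts, a minimum of 10 counts in each library, DESeq2 1.42.0, voomWithQualityWeights of limma 3.58.1, a fit of only the groups compared, gene length offsets, GC content offsets (GC known for 96.7% of tested genes), the 26 mice without FAD_ABX_1151 and FAD_ABX_1482, and each mouse left out in turn. Of all pairs of mice within a group, FAD_ABX_1151 and FAD_ABX_1482 differed most in their counts. A pass over the 26 mice thus follows the removal of the most discordant pair. The procedure was tested on simulated data. Genes were placed with GENCODE M21 and figures drawn with matplotlib 3.10.9.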

Additional observations from a re-analysis of the deposited data

Results flagged for a closer look

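In 2 of the 45 sets of 4 to 6 mice examined (9 genes in 5 groups), 1 mouse stood far from the others, where chance alone gives about 1 in 20. Both concern *Itgal* in WT mice. Mouse WT_GF_230 had 0.215 CPM (4 reads), while the other 3 GF WT mice had 0 reads. With 3 of 4 values at 0, any read in the fourth mouse would stand apart in this way, so this says nothing about the mouse. Mouse WT_ABX_909 had 0.802 CPM (14 reads), while the other 4 ABX WT mice had at most 0.119 CPM. All of these values lie below the lowest 5xFAD mouse with any *Itgal* read (1.47 CPM).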

How the results depend on the processing

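The number of the 9 subunits called moved by more than 1.5 times under some settings, and the share of all genes called, given in brackets, moved too. The cause was not tested. For 5xFAD against WT mice under SPF conditions it rose from 1 (4.57%) to 2 with RLE scaling, at least 10 counts in every library, DESeq2, gene length offsets, GC content offsets or the 26 mice (4.69% to 5.86%), to 3 with voomWithQualityWeights (14.1%) and to 5 in a fit of only the groups compared (9.71%), and leaving out 1 mouse gave 1 to 2 (2 without WT_SPF_912, 3.94%). Under ABX conditions it fell from 5 (14.4%) to 3 with at least 10 counts in every library (18.2%), which removes *Itgal* and *Itga4* from the test. For GF against SPF 5xFAD mice it went from 4 (12.8%) to 7 with voomWithQualityWeights (25.3%) and to 2 with gene length (8.79%) or GC content offsets (8.73%), and leaving out 1 mouse gave 2 to 4 (2 without FAD_SPF_1146, 4.31%, or FAD_SPF_1148, 3.41%). For ABX against GF 5xFAD mice it went from 3 (10.6%) to 1 in a fit of only these groups (1.89%), and leaving out 1 mouse gave 2 to 5 (5 without FAD_ABX_1482, 16.3%). For GF against SPF WT mice it went from 0 (1.62%) to 3 with voomWithQualityWeights (10.7%) or only the groups compared (9.60%) and to 1 over the 26 mice (4.31%). For ABX against GF WT mice it went from 2 (6.88%) to 1 with gene length offsets (7.80%) and to 0 with GC content offsets (1.14%), and leaving out 1 mouse gave 0 to 2 (0 without WT_GF_229, WT_GF_231 or WT_ABX_911, and 1 without WT_GF_230, WT_ABX_909 or WT_ABX_910).

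Of 108 log2 fold changes (9 genes in 12 comparisons), 36 passed the threshold in at least 1 fit and 19 in the reported fit, and 0 of the 36 changed sign under any setting. Of the 72 that never passed, 25 changed sign. Scaling by library size alone gave a median over all genes of -0.15 in place of -0.03 between the GF genotypes, and the called genes kept their direction, with *Itgb2* at 0.31 and *Itgam* at -0.49. No paired analysis was possible because the groups share no mouse numbers. Depth limits *Itgal* and *Itga4*, with 4 to 33 and 40 to 65 reads in all per WT group.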
